A study of Mus musculus with 6 samples.

Results

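The genes described here are 46 mouse genes of fatty acid oxidation and the peroxisome: the enzymes of mitochondrial and peroxisomal beta-oxidation, the acyl-CoA thioesterases, the peroxins and 3 genes that respond to fasting. They were chosen by name, and every probe set of the deposited table whose platform symbol is one of these names was taken. In all, 45 of the 46 had a probe set, giving 70 probe sets, and 44 genes were bright enough to test, out of 6604 genes tested on the arrays. Fgf21 was not analysed here, and Pdk4 was below the minimum signal. The arrays hold 3 liver samples labelled ATP7B KO, of a knockout line for which the labels cite a published description, and 3 labelled wild type. The labels used here give no age, sex, strain, diet, copper state or batch, and they name one liver sample per array (KO903, KO904 and KO905, and WT4, WT5 and WT6). The labels leave unsaid whether the samples are different animals, and the source given for WT6 is in the plural, so the p-values describe only how these 6 samples spread, which may be technical.

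ATP7B is a copper-transporting ATPase that loads copper onto ceruloplasmin and moves excess copper into bile, and its loss causes Wilson disease in people and copper storage in the mouse liver. Mitochondrial beta-oxidation shortens long and medium fatty acids, which enter on carnitine, by repeated rounds of dehydrogenation, hydration, a second dehydrogenation and thiolysis. Peroxisomes shorten very long and branched chains and bile acid side chains with their own set of enzymes, which the peroxins import from the cytosol. In the liver PPARalpha, a nuclear receptor that binds fatty acids, drives many genes of both routes during fasting.

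Each sample was hybridised to 1 Affymetrix array, and a value is a MAS 5.0 signal, an arbitrary unit of brightness scaled per array. Median signals ran from 330.2 to 342.4 across the 6 arrays. Arrays of one group correlated at 0.974 or more over log2 signals, and arrays of different groups at 0.970 or less. Signals of different probe sets are not comparable as transcript levels, so levels are compared only between samples. Atp7b itself read 219 ± 29.9 in knockout arrays against 267 ± 30.1 in wild type arrays (means ± SD, n = 3 each), which is -0.27 ± 0.16 (SE) in log2 units with a limma adjusted p of 0.407. Where that probe set lies relative to the disrupted sequence was not checked, so it does not test the labels. Hepatocyte markers were bright in every liver, albumin at 21282 to 27522, and 2 of 8 tested markers had a log2 difference, knockout minus wild type, above 0 (median -0.13). Their summed signal overlapped between the groups, 123384 to 141152 in knockout and 132551 to 158541 in wild type.

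Most of the fatty acid oxidation and peroxisomal genes differed little between the livers. Of the 44 tested genes, 2 rose in the knockout, Acad10 and Vnn1, and 1 fell, the thioesterase gene Acot3, at a limma adjusted p under 0.05. That is 6.82% of the genes, beside 3.94% of all 6604 tested genes (2.14% higher and 1.80% lower) and 4.14% of all 10620 tested probe sets. The median log2 difference, knockout minus wild type, was 0.04 over the 44 genes and 0.03 over all genes. Of the 44, 25 lay above 0 and 19 below, and of all 6604 genes 3727 lay above 0 and 2877 below. The median size of the difference, regardless of sign, was 0.13 against 0.15 over all genes. For 28 of the 44 genes (63.6%) the 95% interval of the difference lay within 0.5 of 0 on the log2 scale, against 50.6% of all genes. The groups did not overlap for 14 of the 44 genes (31.8%; 9 higher, 5 lower), against 24.1% of all genes (14.0% higher, 10.1% lower). An unadjusted p under 0.05 was reached by 10 of the 44 (22.7%), against 18.0% of all genes. The count of calls moved with single arrays. It was 0 without KO903 (8 genes at an unadjusted p under 0.05 in limma), and 1 without KO905, WT4 or WT6.

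**Figure D1:**
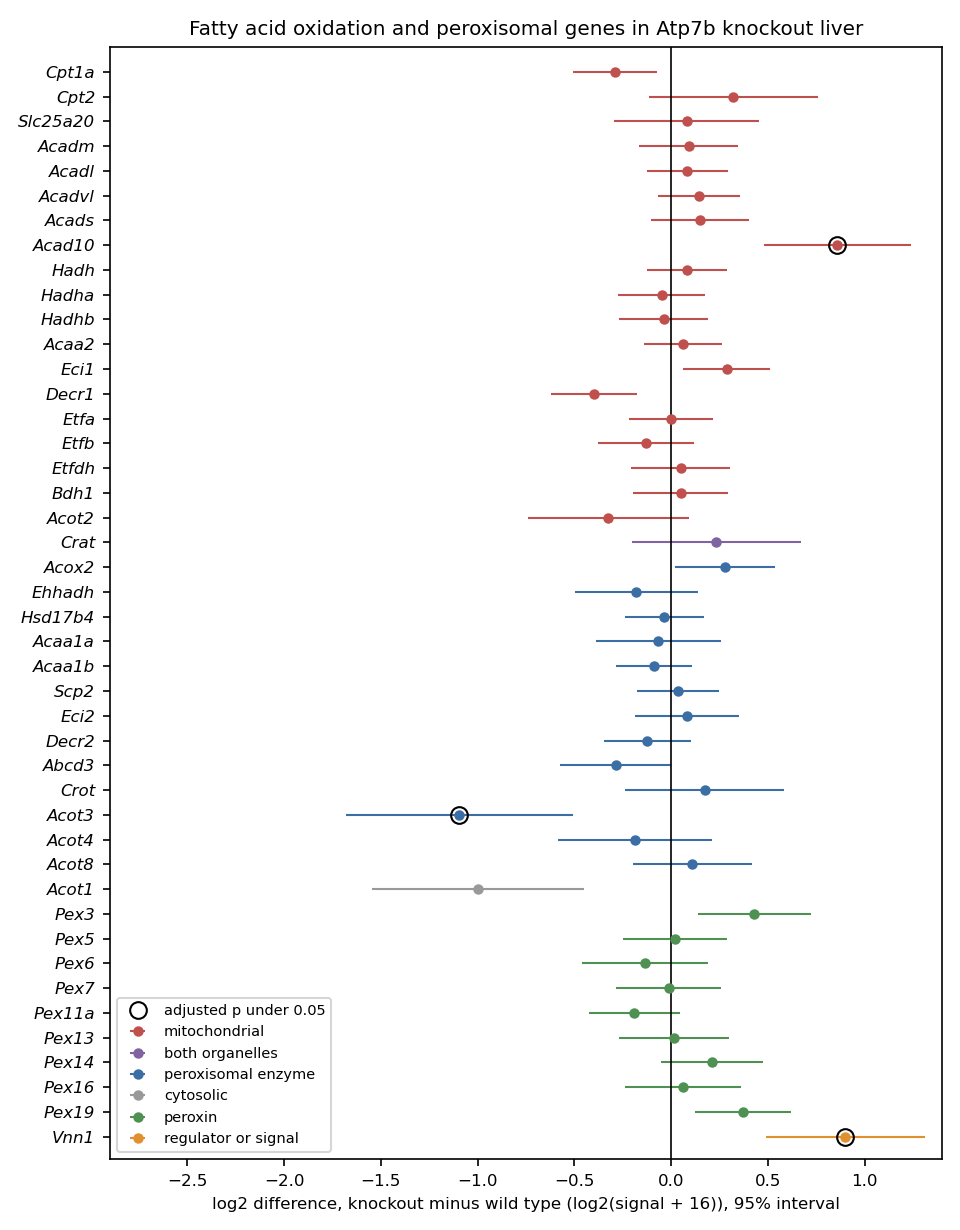
Log2 difference in signal (knockout minus wild type) on the horizontal axis for the 44 tested genes, grouped by compartment, with bars for the 95% interval and n = 3 per group. Most intervals span 0, and Acad10 and Vnn1 on the higher side and Acot3 on the lower side are the genes called.

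Mitochondrial and peroxisomal steps were set apart. The 19 mitochondrial genes had a median log2 difference of 0.06 and ran from -0.40 (Decr1) to 0.86 (Acad10), with 1 called higher and none lower. The 13 peroxisomal enzymes had a median of -0.07 and ran from -1.09 (Acot3) to 0.28 (Acox2), with 1 called lower and none higher. The 9 peroxins had a median of 0.02 and ran from -0.19 (Pex11a) to 0.43 (Pex3), with none called in limma and 2 at an unadjusted p under 0.05. Without the thioesterases the medians were 0.07 for 18 mitochondrial genes and -0.05 for 10 peroxisomal enzymes. Leaving out 1 array at a time moved the mitochondrial median between 0.01 and 0.09, the peroxisomal enzyme median between -0.09 and -0.01 and the peroxin median between 0.02 and 0.10. The highest peroxin median came without KO903, and without KO905 it was 0.06. The medians of the compartments were not tested against each other.

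By array, the mitochondrial and peroxisomal enzyme medians overlapped between the groups and the peroxin medians did not. As the median deviation of the genes from their own mean over the 6 arrays, mitochondrial genes stood at 0.09, -0.01 and -0.03 in KO903, KO904 and KO905, and at -0.09, 0.07 and -0.01 in WT4, WT5 and WT6. Peroxisomal enzymes stood at -0.08, -0.01 and -0.01 in the knockout arrays and at -0.05, 0.08 and 0.03 in wild type. Peroxins stood at 0.09, 0.08 and -0.02 in knockout and at -0.07, -0.08 and -0.06 in wild type. Over all 6604 genes the medians also leaned the same way, at 0.03, 0.04 and -0.0046 in knockout and -0.02, -0.0043 and -0.0044 in wild type. WT4 had the lowest wild type signal for 21 of the 44 genes and WT5 the highest for 20, while KO905 had the lowest knockout signal for 21 and KO903 the highest for 20.

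**Figure D2:**
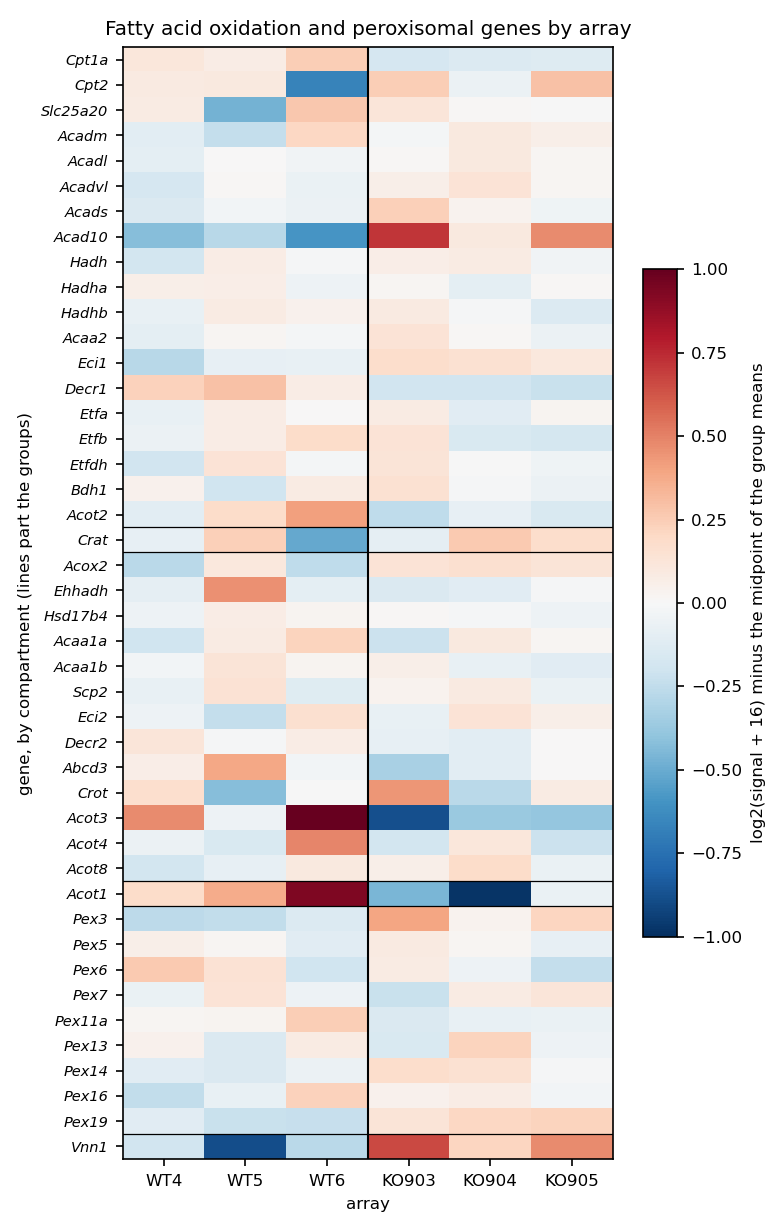
Each gene's log2 signal on each array as the deviation from its own mean over the 6 arrays, with genes in rows, arrays in columns, and colours that saturate at 1 in either direction. Acot1, Acad10 and Vnn1 show opposite colours in the groups, as does Acot3 except in WT5 (-0.05), and most rows are pale in every array.

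Entry of long chains into mitochondria runs through the carnitine shuttle, whose 3 genes did not pass the test. Cpt1a, the outer membrane transferase and the controlled step of the pathway, read 2527, 2578 and 2601 in knockout and 3078, 2995 and 3376 in wild type. The groups did not overlap, and the knockout mean of 2569 ± 37.8 against 3149 ± 200 gave a log2 difference of -0.29 ± 0.10 (SE), limma adjusted p = 0.136. The 2 dimmer Cpt1a probe sets were closer to 0, at -0.06 and -0.17. Cpt2, the inner membrane transferase, stood at 1177 ± 153 and 960 ± 268, where WT6 alone was low at 650.5. Its difference was 0.32 ± 0.20 (adjusted p = 0.438), or 0.068 without WT6. The dimmer Cpt2 probe set lay on the other side of 0, at -0.06, with overlapping groups. Slc25a20, the carnitine-acylcarnitine carrier, differed by 0.08 ± 0.17 (adjusted p = 0.856), and this sign turned when single arrays were left out (-0.14 to 0.24).

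The acyl-CoA dehydrogenases take the first step of each round, and all 5 lay above 0, with a median of 0.15. Acad10, a family member whose substrates are less well defined than those of its relatives, rose. Its signals were 554.5, 355.7 and 464.1 in KO903, KO904 and KO905 and 242.4, 270.1 and 214.8 in WT4, WT5 and WT6, so every knockout value was above every wild type value. The means of 458 ± 99.5 (SD, n = 3) and 242 ± 27.6 (SD, n = 3) gave a log2 difference of 0.86 ± 0.17 (SE; 95% interval 0.48 to 1.24), 1.81-fold, with a limma adjusted p of 0.0203. The call was lost without KO903 (adjusted p = 0.0804), KO905 (0.0741), WT4 (0.0586) or WT6 (0.0662), at log2 differences between 0.71 and 1.02 over all 6 leave-outs.

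The long-standing enzymes of this step differed by far less and were not called. Acadvl, for the longest chains, read 4399, 4636 and 4286 in knockout and 3757, 4263 and 4024 in wild type, groups that did not overlap, with a difference of 0.15 ± 0.10 (adjusted p = 0.475). Acads, for short chains, differed by 0.15 ± 0.12 (adjusted p = 0.551). Acadm, for medium chains, and Acadl, for long chains, differed by 0.09 ± 0.12 and 0.08 ± 0.10, and Acadl was the third of the family whose groups did not overlap.

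The later steps of the mitochondrial round lay close to 0. The trifunctional protein subunits Hadha and Hadhb, the short-chain hydroxyacyl-CoA dehydrogenase gene Hadh and the thiolase gene Acaa2 lay between -0.05 and 0.08. On the probe set read for each gene, all 4 intervals fell within 0.5 of 0. Hadha read 1953, 1804 and 1943 in knockout against 2008, 2022 and 1869 in wild type, a difference of -0.05 ± 0.10 (adjusted p = 0.853). The dimmer Hadhb probe set read lower than the brighter one, at -0.32 ± 0.12 (adjusted p = 0.183), with groups apart. The electron transfer flavoprotein, which passes electrons from the dehydrogenases to the respiratory chain through its own dehydrogenase, also lay close to 0. Etfa differed by 0.00 ± 0.10, Etfb by -0.13 ± 0.11 (adjusted p = 0.603) and Etfdh by 0.05 ± 0.12 (adjusted p = 0.866), again with all 3 intervals within 0.5. The ketone body enzyme gene Bdh1 differed by 0.05 ± 0.11 (adjusted p = 0.860).

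The auxiliary enzymes that handle double bonds of unsaturated chains lay on opposite sides of 0, and neither was called. Decr1, the 2,4-dienoyl-CoA reductase, read 2415, 2415 and 2359 in knockout and 3229, 3386 and 2901 in wild type. The groups did not overlap, and the difference of -0.40 ± 0.10 (95% interval -0.62 to -0.18; means 2396 ± 32.5 and 3172 ± 248) missed the threshold at a limma adjusted p of 0.0525. Its dimmer probe set lay on the same side, 479 ± 31.1 against 571 ± 35.7 and also without overlap, at -0.25 ± 0.12 (adjusted p = 0.326). Decr1 passed under median centring (adjusted p = 0.0436), a minimum signal of 200 (0.0452), robust variance moderation (0.0479) and array weights (0.0408). Eci1, the delta3,delta2-enoyl-CoA isomerase, read 2779.7, 2738 and 2657 in knockout and 2033, 2331 and 2338 in wild type, again apart but in the other direction. Its difference was 0.29 ± 0.10 (adjusted p = 0.162).

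In peroxisomal beta-oxidation none of 9 genes was called in limma and 1 reached an unadjusted p under 0.05, Acox2. This gene encodes the acyl-CoA oxidase for branched chains and bile acid intermediates. It read 3421, 3475 and 3394 in knockout and 2577, 3343 and 2605 in wild type, so the groups were apart but WT5 lay close to the knockout values. The difference of 0.28 ± 0.12 (adjusted p = 0.237) became 0.40 without WT5 and then passed (adjusted p = 0.0475). Ehhadh, the bifunctional hydratase and dehydrogenase a known PPARalpha target, stood at 3271 ± 160 and 3765 ± 884. WT5 alone was high at 4786, and the difference of -0.18 ± 0.15 (adjusted p = 0.580) turned to 0.0060 without it.

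The remaining enzymes of the peroxisomal round lay close to 0. Hsd17b4, the second bifunctional enzyme, differed by -0.04 ± 0.09 (adjusted p = 0.887). The thiolase copies Acaa1a and Acaa1b are near-identical in sequence, so their probe sets may share signal. Acaa1b read 10054 ± 636 in knockout and 10683 ± 567 in wild type (-0.09 ± 0.09, adjusted p = 0.679), and Acaa1a differed by -0.07 ± 0.15 (adjusted p = 0.861). The 2 probe sets annotated to both copies lay at -0.10 and -0.04. Scp2, which encodes sterol carrier protein and a thiolase, read 13761 to 16514 over the 6 arrays and differed by 0.03 ± 0.10. Eci2 and Decr2, the peroxisomal counterparts of Eci1 and Decr1, differed by 0.08 ± 0.12 and -0.12 ± 0.10.

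Transport across the peroxisomal membrane and off the organelle showed no call. Abcd3, the half-transporter that carries long and branched acyl-CoA inward, read 3221, 3752 and 4063 in knockout and 4230.3, 5305 and 3978 in wild type, which overlap. Its difference was -0.29 ± 0.13 (adjusted p = 0.282), and -0.16 without WT5, the array with the highest signal. The carnitine transferases that export shortened chains were variable within groups: Crot read 4417, 2696 and 3449 in knockout and 3656, 2413 and 3245 in wild type (0.17 ± 0.19, adjusted p = 0.700). Crat, present in both organelles, differed by 0.23 ± 0.20 (adjusted p = 0.599), and by 0.036 without WT6 and 0.41 without WT5.

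The acyl-CoA thioesterases, which release free fatty acid and coenzyme A, held the lowest differences of the list. Of the 5 genes 4 lay below 0, the median was -0.33, 1 was called lower and none higher. Over all 6604 genes 2877 lay below 0 and 1.80% were called lower. The median is the value of Acot2, whose mean signal was 102, with a wild type mean of 116 and a knockout mean of 88.2. Acot2 thus passed the minimum of 100 only through its wild type signal, and it is 1 of the 4 below 0. Acot2 (mitochondrial), Acot1 (cytosolic), Acot4 and Acot3 (both peroxisomal) are close copies that lie in that order on chromosome 12, with 1 long noncoding RNA gene between Acot1 and Acot4 in the RefSeq annotation. The 250 bases before each RefSeq start (GRCm38.p6, plus strand) are given in genomic order because these neighbours have related coding sequences but separate starts. Capitals mark the single match to a PPAR response element, a direct repeat of AGGTCA with 1 base between the copies, allowing up to 2 mismatches on either strand.
Acot2, chr12:83987611-83987860: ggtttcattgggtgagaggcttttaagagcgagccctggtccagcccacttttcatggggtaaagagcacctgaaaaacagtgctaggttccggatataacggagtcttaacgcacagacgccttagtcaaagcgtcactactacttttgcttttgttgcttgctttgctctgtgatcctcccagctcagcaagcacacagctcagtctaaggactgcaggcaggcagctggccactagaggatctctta
Acot1, chr12:84009252-84009501: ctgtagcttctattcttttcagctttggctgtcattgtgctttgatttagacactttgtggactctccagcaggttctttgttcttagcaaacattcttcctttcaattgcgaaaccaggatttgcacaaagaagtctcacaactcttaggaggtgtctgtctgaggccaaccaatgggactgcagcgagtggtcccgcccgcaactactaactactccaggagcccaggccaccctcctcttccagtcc
Acot4, chr12:84038129-84038378: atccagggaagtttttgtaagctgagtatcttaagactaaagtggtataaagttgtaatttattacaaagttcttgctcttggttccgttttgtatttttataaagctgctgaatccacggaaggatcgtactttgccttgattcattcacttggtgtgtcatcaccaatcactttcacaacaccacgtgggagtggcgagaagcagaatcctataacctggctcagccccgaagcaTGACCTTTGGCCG
Acot3, chr12:84051894-84052143: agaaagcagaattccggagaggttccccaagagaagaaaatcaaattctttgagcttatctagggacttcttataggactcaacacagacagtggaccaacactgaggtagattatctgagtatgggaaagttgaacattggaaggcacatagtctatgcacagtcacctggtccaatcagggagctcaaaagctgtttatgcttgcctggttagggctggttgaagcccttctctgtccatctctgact
The match, on the minus strand, begins 13 bases before the Acot4 start. Such a match was found in 3.24% of 32851 promoter windows of this length, and in 2 of the 47 windows of the listed genes (4.26%; Acot4 and Etfa). No such match is in the other windows printed.

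Acot3 fell. Its signals were 489, 700.3 and 692 in KO903, KO904 and KO905 and 1272, 879 and 2147 in WT4, WT5 and WT6. The groups did not overlap, and the wild type values were the more widely spread. The means of 627 ± 120 (SD, n = 3) and 1432 ± 649 (SD, n = 3) gave a log2 difference of -1.09 ± 0.27 (95% interval -1.68 to -0.51), 2.13-fold, at a limma adjusted p of 0.0453. The call was lost without KO903 (adjusted p = 0.156), KO904 (0.109), KO905 (0.0932), WT4 (0.0999) or WT6 (0.0845), with moderation that ignored the mean trend (0.0770) and with robust moderation (0.0646). The difference was -0.76 without WT6 and -1.39 without WT5. The Acot3 probe set is of a type that can match several transcripts of a family, and the platform annotation names only Acot3.

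Acot1 lay just outside the threshold. It read 148.6, 98.4 and 199.7 in knockout and 240.6, 275.7 and 414.9 in wild type, so all knockout values were below all wild type values. The difference was -0.996 ± 0.25 (means 149 ± 50.7 and 310 ± 92.2), limma adjusted p = 0.0502. It passed under median centring (0.0452), a pseudocount of 64 (0.0483), no minimum signal (0.0489), a minimum of 200 (0.0482), the mean over probe sets (0.0412) and without KO905 (0.0398). A probe set annotated to both Acot1 and Acot2, and so counted for neither, read 326, 289 and 461 in knockout against 541, 818 and 851 in wild type. It was lower by -1.01 ± 0.20 on the log2 scale with an adjusted p of 0.0214.

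The remaining thioesterases differed less. Acot2 was near the minimum signal, 88.2 ± 6.36 against 116 ± 23.5, with a difference of -0.33 ± 0.19 (adjusted p = 0.406). Acot4 read 377, 468 and 369 in knockout and 413, 386 and 611 in wild type on its brighter probe set (-0.19 ± 0.18, adjusted p = 0.654), and its dimmer probe set, with groups apart, lay at -0.42 ± 0.15 (adjusted p = 0.157). WT6 held the highest wild type signal of Acot1, Acot2, Acot3 and the brighter Acot4 probe set, and WT4 that of the dimmer Acot4 probe set. Acot8, a peroxisomal thioesterase of another sequence family, differed by 0.11 ± 0.14 (adjusted p = 0.748). Signal that crosses between these close copies was not tested.

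**Figure D3:**
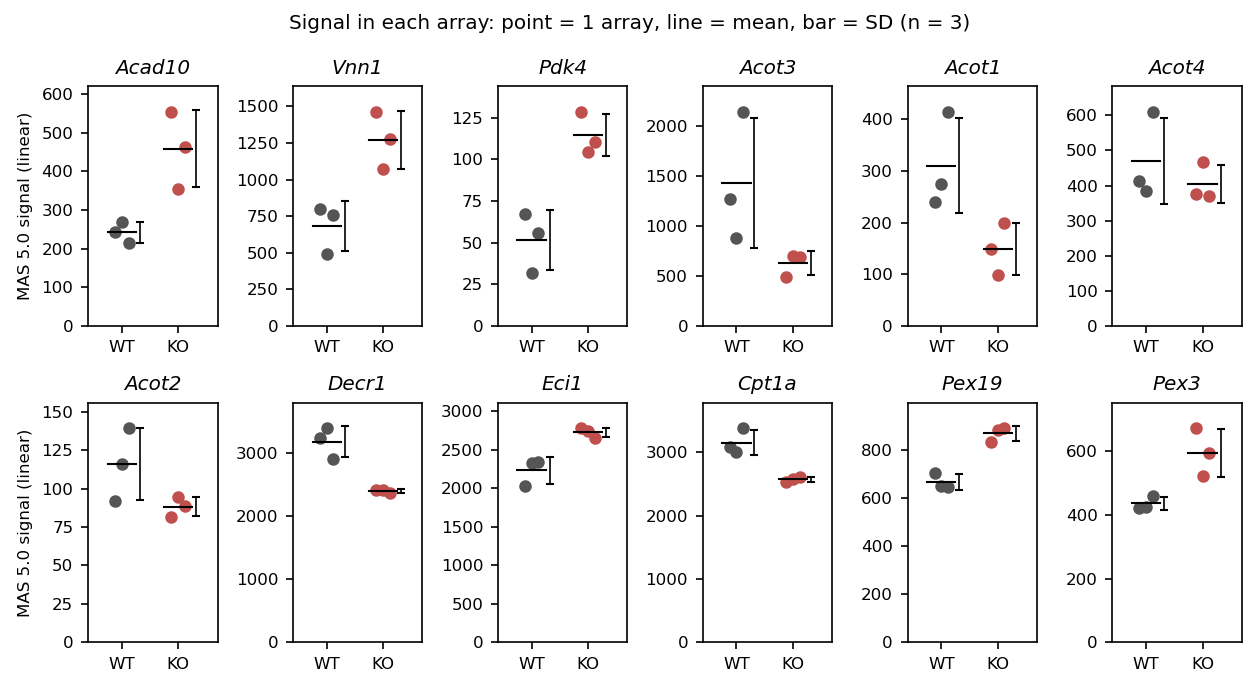
MAS 5.0 signal in each of the 6 arrays for 12 of the genes, 1 panel per gene with its own linear axis from 0, with points for arrays, lines for group means and bars for the SD (n = 3). Knockout points lie above wild type points for Acad10, Vnn1, Pdk4, Eci1, Pex19 and Pex3. They lie below them for Acot3, Acot1, Decr1 and Cpt1a, and the groups overlap for Acot4 and Acot2. The genes shown are not typical of the list, since groups were apart for 31.8% of the 44 tested genes. The wild type points of Acot3 spread from 879 to 2147.

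None of the 9 peroxins was called in limma, and the largest differences were in the genes that place proteins in the peroxisomal membrane. Pex19, the soluble receptor for new membrane proteins, read 832, 881 and 889 in knockout and 703, 649 and 646 in wild type, a difference of 0.37 ± 0.11 (95% interval 0.13 to 0.62, adjusted p = 0.0958). Its other probe set read 683, 764 and 593 against 536, 468 and 418, at 0.51 ± 0.14 (adjusted p = 0.0767). Neither probe set's groups overlapped, and the mean of both passed (0.44, adjusted p = 0.0471). Pex3, the membrane anchor to which Pex19 docks, read 671, 520.3 and 592 in knockout and 422, 425 and 459.6 in wild type. Its difference was 0.43 ± 0.13 (adjusted p = 0.104), and its other probe set, also with groups apart, lay at 0.16 ± 0.12 (adjusted p = 0.522). Without KO903 the Pex3 difference was 0.19 (adjusted p = 0.601). Pex16, the remaining member of that step, differed by 0.06 ± 0.14 with overlapping groups.

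Of the peroxins that import matrix enzymes none was called. Pex14, part of the docking complex, differed by 0.21 ± 0.12 without overlap, and its partner Pex13 by 0.02 ± 0.13. The cargo receptors Pex5 and Pex7 differed by 0.02 ± 0.12 and -0.01 ± 0.12. Pex6, an ATPase that recycles the receptor, lay below 0 on all 4 of its probe sets, from -0.37 to -0.06, with groups apart on 2 of them. Pex11a, which takes part in peroxisome proliferation and responds to PPARalpha agonists, stood at 1802 ± 55.6 and 2062 ± 188 without overlap, at -0.19 ± 0.11 (adjusted p = 0.395), or -0.12 without WT6.

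Of 17 genes with several tested probe sets, 12 had the same sign on all of them, and for all 17 the probe sets lay within 0.5 of each other on the log2 scale. Decr1, Pex3 and Pex19 were the 3 whose groups were apart, in the same direction, on every tested probe set. On the 1 probe set read per gene, the groups were apart for 24.1% of all genes. The matching shares over all genes with several probe sets were not computed, so these counts have no background.

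Of the 3 genes that respond to fasting, the only one tested was called. Vnn1, the pantetheinase that releases cysteamine and a known PPARalpha target in liver, rose. It read 1464, 1071 and 1279 in KO903, KO904 and KO905 and 802, 490.3 and 758 in WT4, WT5 and WT6, without overlap. The means of 1271 ± 196 (SD, n = 3) and 684 ± 169 (SD, n = 3) gave a log2 difference of 0.90 ± 0.19 (95% interval 0.49 to 1.31), 1.87-fold, limma adjusted p = 0.0233, and the call was lost without KO903 (0.0914) or KO905 (0.0825). Pdk4, the kinase that switches off pyruvate dehydrogenase in fasting, was dim: 129, 105 and 110.4 in knockout and 67.4, 31.8 and 55.5 in wild type. Its mean signal was under the minimum of 100, so it was left out of the test. Fitted without that minimum, it differed by 0.98 ± 0.23 (adjusted p = 0.0350), with the groups apart.

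Other genes of the same pathways were drawn from a list of 107, of which 71 were tested. None was called higher and 3 were called lower (4.23%), Ppara, Nr1h4 and Amacr, beside 3.94% of all genes called (2.14% higher, 1.80% lower). An unadjusted p under 0.05 in limma was reached by 16 (22.5%), against 18.0% of all genes. The median difference was -0.04, and 0.03 over all genes. Without WT5 the calls numbered 5, with Cd36 higher and Mcee lower in addition. The list labelled PPARalpha and partners also holds the nuclear receptor genes Nr1h4 and Hnf4a. All 6 of its genes lay below 0 on the probe set read for the gene, with a median of -0.43. Ppara itself read 1233, 1390.2 and 1067 in knockout against 2380, 2374 and 3250 in wild type (-1.10 ± 0.15, adjusted p = 0.00258). Nr1h4, the bile acid receptor FXR, read 807, 884 and 782 against 1233, 1025 and 1326, without overlap, at -0.52 ± 0.13 (adjusted p = 0.0468). Its call was lost under quantile normalization (0.0505), without the mean trend (0.0770) and when any array except WT5 was left out (adjusted p up to 0.147).

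The other 4 genes of the PPARalpha and partners list were not called. Ppargc1a differed by -0.57 ± 0.21 (adjusted p = 0.186), Rxra by -0.30 ± 0.12, Ppargc1b by -0.34 ± 0.17 and Hnf4a by -0.21 ± 0.10. On these probe sets the groups were apart for Rxra and Hnf4a and overlapped for Ppargc1a and Ppargc1b. The dimmer Hnf4a probe sets lay at -0.07, -0.38 and 0.02, with overlapping groups. The dimmer tested Ppargc1a probe sets lay at -0.14, -0.50 and -0.61, and that of Rxra at -0.15. Of the 6 genes of the list, 4 reached an unadjusted p under 0.05 in limma (66.7%, against 18.0% of all genes). Amacr, the racemase that prepares branched chains and bile acid intermediates for Acox2, stood at 362 ± 66.1 in knockout and 1949 ± 436 in wild type (-2.37 ± 0.18, adjusted p = 6.04e-05), while Acox2 itself lay at 0.28, as above. Cyp4a14, an omega-hydroxylase, differed by -0.16 ± 0.14 and Cat, peroxisomal catalase, by -0.15 ± 0.10. The list of other PPARalpha targets had 8 tested genes, 4 above and 4 below 0, with a median of 0.06, none called in limma and 2 at an unadjusted p under 0.05. They ran from -0.32 (Tmem135) to 0.30 (Hsdl2, adjusted p = 0.182), and the Hsdl2 groups were apart on both of its probe sets. The 11 tested genes of fatty acid uptake and activation had a median of -0.15 with none called in limma and 2 at an unadjusted p under 0.05, the lowest being Acsl4 at -0.74 ± 0.20 (adjusted p = 0.0613). The 2 dimmer Acsl4 probe sets lay at -0.29 and 0.024, with overlapping groups.

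**Figure D4:**
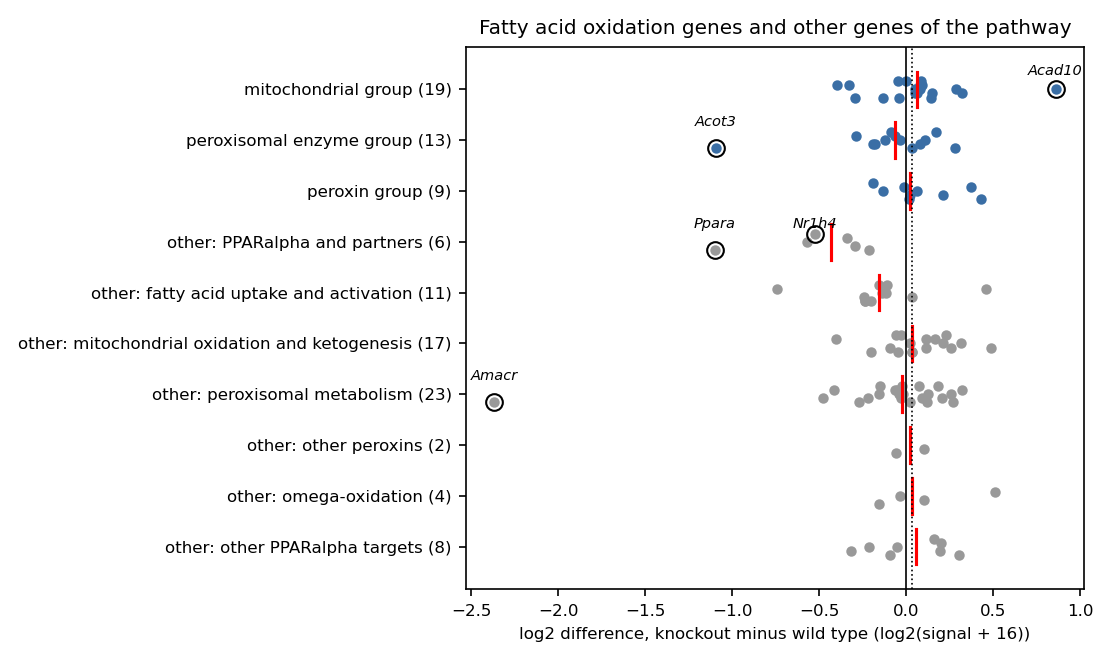
Log2 difference in signal (knockout minus wild type) on the horizontal axis, 1 point per tested gene, in rows for the mitochondrial, peroxisomal enzyme and peroxin genes (blue) and for the lists of other pathway genes (grey), with the number of genes in brackets, red bars for row medians, a dotted line for the median of all genes and circles for genes called. The median of the row labelled PPARalpha and partners (-0.43) and that of fatty acid uptake and activation (-0.15) lie left of 0. The mitochondrial (0.06), peroxisomal enzyme (-0.07) and peroxin (0.02) medians lie beside it.

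Copper loading acts on metal-responsive genes through a short element, whose core TGCACNC or TGCGCNC was found in 23.4% of the 47 promoter windows of the listed genes and in 21.4% of all 32851 windows, on either strand. Among the called genes with a window, Acad10 holds the TGCGCNC form and Acot3 holds neither.

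In whole liver, fewer cells of a type and less RNA per cell cannot be told apart. Macrophage markers lay above 0 for 8 of 8 tested genes of 11 listed, with a median of 0.35 and none called in limma, and summed signals of 5674 to 7638 in knockout and 4063 to 5709 in wild type. Endothelial markers lay above 0 for 8 of 9, with sums of 3627 to 4433 and 3107 to 3595. Over all genes 3727 of 6604 lay above 0 and 2.14% were called higher. Rgs5 (stellate or pericyte), Alas2 (erythroid) and Cela1 (pancreas acinar) were called higher. The only lymphocyte marker tested, Ms4a1, lay at 0.40 with groups apart. The 2 tested neutrophil markers had a median of 0.14, and the only adipocyte marker tested, Fabp4, lay at -0.31. None of these was called in limma. Of 5 tested stellate or fibroblast markers 2 lay above 0 (median -0.04), and only Rgs5 was called. Alas2 was the only erythroid marker tested, of 5 listed. Of 6 listed acinar markers 2 were tested, with Cela1 the only call. No cholangiocyte marker was analysed here. The part of other cells in the Acad10, Vnn1 and Acot3 results was not tested.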

How the data were processed

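Total RNA of 6 mouse liver samples was extracted with TRIzol, cleaned on RNeasy columns and labelled by an Enzo kit, per the labels' protocols. The deposited table gives linear intensity values, which the authors made with MAS 5.0 and scaled per array to an average target of 350, per the labels. The table holds 11811 probe sets, chosen by a rule that the labels do not state. No detection calls were used.

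Control probe sets (33) and those with a mean signal under 100 (1158) were left out, leaving 10620. The log2 of signal plus 16 was fitted with limma 3.58.1 (lmFit, eBayes with trend, two-sided) in R 4.3.3, with 1 coefficient for group over all 6 arrays, and Benjamini-Hochberg adjustment over the 10620. Fold changes are on that scale and understate those of dim genes. A gene was read from its tested probe set with the highest mean signal. The platform annotation gave the gene names (10776 with 1 symbol, 418 with several, 584 with none); 10762 were matched to RefSeq (GRCm38.p6) by Entrez identifier. Promoter windows for 40 of the 46 genes came from RefSeq. The fit was tested on simulated data.

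Genes named with values were those called, the 3 of each role with the smallest p, near-identical copies and genes under the minimum; the rest are given by ranges or single values. Acot4 and Pex14 fall outside this rule and were added after their values were seen. Of the other pathway genes, the rule took those called, Cyp4a14 and Cat. Ppargc1a, Rxra, Ppargc1b, Hnf4a, Acsl4, Tmem135, Hsdl2, Cd36 and Mcee also fall outside the rule. The members and lists were chosen with earlier results of these data known. Alternatives were quantile normalization, median centring, pseudocounts of 1 and 64, no minimum and a minimum of 200, eBayes without trend or robust, array weights, the mean over a gene's probe sets, a threshold of 0.10 and leaving out each array. The number of arrays limits the precision. No figure or test used a batch, since none is labelled.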

Additional observations from a re-analysis of the deposited data

How the results depend on the processing

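The median log2 difference over all tested probe sets was 0.025, and 0.0093 after quantile normalization and -0.0018 after median centring. Both scalings align the arrays, so a median near 0 is set by them and is not a test. Over all probe sets, 440 were called, 786 at a threshold of 0.10, and 175 to 475 when 1 array was left out. Of the listed genes 3 were called, and 5 under median centring, with no minimum signal, with a minimum of 200 and with the mean over probe sets. The count was 4 with a pseudocount of 64 and with array weights, and 2 with eBayes without trend. With robust eBayes it stayed at 3, but Decr1 was called and Acot3 was not. It was 6 at a threshold of 0.10, and 0 to 4 when 1 array was left out. Calls among other pathway genes went from 3 to 6 at a threshold of 0.10 and to between 2 and 5 without 1 array. The peroxin median of 0.02 became -0.01 under median centring and lay between 0.016 and 0.10 without 1 array.

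Of 541 values for 34 named genes, 493 kept direction and side of the threshold, 20 lost the threshold, 12 gained it and 16 changed sign. The genes that changed sign had differences between -0.18 (Ehhadh) and 0.17 (Crot). When 1 array was left out, Acaa1a ran from -0.18 to 0.028, Bdh1 from -0.037 to 0.10, Crot from -0.0045 to 0.35, Ehhadh from -0.27 to 0.0060, Etfa from -0.043 to 0.057, Etfdh from -0.033 to 0.13 and Slc25a20 from -0.14 to 0.24. Etfa was 0.054 under quantile normalization and 0.022 with array weights, and with the mean over probe sets Bdh1 was -0.0068 and Hadh -0.050. The cause was not tested. No paired analysis was possible because the groups share no sample number. The standard error ran from 0.09 to 0.27 over the listed genes, the highest being that of Acot3, and with 3 arrays a group the 95% interval stayed within 0.5 of 0 for 28 of the 44 genes only.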
